A study of Mus musculus with 8 samples.

Results

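The genes of the ISG15 conjugation system were followed across 4 culture conditions of mouse alveolar macrophages, which live in the airspaces of the lung and clear particles and microbes there. They were taken as the rows of the deposited expression table with the symbols Isg15, Uba7, Ube2l6, Herc6 and Usp18, which are 5 of the 15521 genes in the table, and all 5 were tested. Cells had been washed from mouse lungs, enriched by adherence for 2 h and kept in medium with GM-CSF at 10 ng/ml in every group. The 4 groups, of 2 bulk RNA-seq libraries each, were Poly(I:C) with MSDC, Poly(I:C) with vehicle, MSDC alone and vehicle (DMSO) alone. MSDC was given at 10 µM for 2 h before Poly(I:C), a synthetic double-stranded RNA, at 5 µg/mL for 24 h (the series text calls the stimulation overnight). Compounds with the MSDC prefix target the carrier that brings pyruvate into mitochondria, but the labels do not say which one was used, while their strain field repeats the treatment, and no age is given. Whether the pair of libraries in a group stems from different animals or wells is not labelled either, so every p-value measures the spread between these libraries only, which may be technical.

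ISG15 is a small protein related to ubiquitin that is attached to other proteins, a process called ISGylation. UBA7 activates ISG15, UBE2L6 carries it, and a HERC ligase attaches it to targets. In mice that ligase is HERC6, whereas human cells use HERC5. USP18 takes ISG15 off again and, apart from its protease activity, dampens signalling at the type I interferon receptor. The genes of this system are classical targets of type I interferon, acting through a transcription factor complex named ISGF3, of which STAT2 and IRF9 are parts.

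Library totals ran from 28762425 to 29493223 read counts, and 11621 genes passed the filter on low counts. All 12 alveolar macrophage markers, such as Siglecf and Marco, reached 1 TPM (a transcript level scaled for gene length and for the size of the library). Their summed level lay between 15481 and 16061 TPM with Poly(I:C) and MSDC, 12375 and 12608 TPM with Poly(I:C) and vehicle, 15118 and 15198 TPM with MSDC, and 14265 and 14382 TPM with vehicle. Single markers moved in both directions under these sums. With MSDC alone, Ear1 (1613 and 1617 TPM, against 119 and 120 TPM with vehicle), Ear2, Krt79, Marco, Fabp4 and Mrc1 were higher than with vehicle. Lower were Chil3 (4807 and 4697 TPM, against 8536 and 8579 TPM with vehicle), Itgax, Pparg, Car4 and Csf2ra, while Siglecf overlapped. Levels of defining markers of other cells differed within a list. Of the lung epithelium markers, Sftpc stayed at or under 0.09 TPM, while Scgb1a1 reached 2.11 TPM, and 3 of 6 reached 1 TPM. Of the T cell markers, Cd3e stayed at or under 0.1 TPM, while Lck reached 0.71 TPM. Of the interstitial macrophage and monocyte markers, 4 of 6 reached 1 TPM. C1qb stood between 1.86 and 5.2 TPM in every library. Ccr2 stood between 2.01 and 2.28 TPM in the libraries without MSDC and between 0.36 and 0.84 TPM in those with it. Cdh5 (endothelium) reached 1.6 TPM and Zbtb46 (dendritic cells) 1.28 TPM. Lung epithelium markers summed to between 21.3 and 36.7 TPM, nearly all of it Cdh1, and neutrophil markers to between 27.05 and 47.8 TPM, most of it S100a8. Interferon-stimulated genes differed in 1 direction between libraries of the same group. Of 21 such genes outside the ISG15 system, 20 were higher in vehicle replicate 1 than in replicate 2, and 19 were higher in MSDC replicate 2 than in replicate 1. The ISG15 genes followed the first split, with all 5 higher in vehicle replicate 1, while 3 of them were higher in MSDC replicate 2, so results that use unstimulated libraries are given with and without single libraries where that matters. In the stimulated groups the differences were smaller. Of the 21 genes, 18 were higher in replicate 2 with Poly(I:C) and MSDC (median log2 of replicate 1 over replicate 2 -0.043) and 19 with Poly(I:C) and vehicle (-0.103), against medians of -0.632 with MSDC and 0.705 with vehicle. Of the 5 ISG15 genes, 4 were higher in replicate 2 in each stimulated group. Among 11319 genes with a mean of at least 10 counts, 6686 were higher in replicate 1 with vehicle and 4661 in replicate 2 with MSDC. In replicate 2, 6211 of them were higher with Poly(I:C) and MSDC, and 5861 with Poly(I:C) and vehicle.

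Positions are those of RefSeq on GRCm38.p6, the build named in the submitters' processing notes being GRCm38 (mm10). Isg15 lies at chr4:156199424-156200818 on the minus strand with 2 exons, and Uba7 at chr9:107975567-107984056 on the plus strand with 24 exons. Ube2l6 lies at chr2:84798828-84810003 with 4 exons, Herc6 at chr6:57580992-57665136 with 23 exons and Usp18 at chr6:121245906-121270917 with 11 exons, all on the plus strand (exons of the principal GENCODE M21 transcript). None of the 2038 words of 50 bases in Usp18 coding transcripts occurred in transcripts of another gene. Shared words made up 3.96% for Isg15 and 3.15% for Ube2l6. They made up 4.74% for Uba7, all with the overlapping gene Gm20661. For Herc6 the share was 23.8%, all with the overlapping transcript Gm45193, so its count could depend on how overlapping annotation was handled. Herc6 is also overlapped by Gm19244, and Usp18 by Gm44148, and no source used here says whether reads were counted by strand.

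Promoters are shown because the 5 genes moved together after Poly(I:C). RefSeq promoter sequences were matched for Isg15, Uba7, Ube2l6 and Herc6, and the promoter set used has no entry for Usp18. The 250 bases before the Isg15 start, chr4:156200819-156201068 on the minus strand, are given with matches to the core of the interferon-stimulated response element, GAAANNGAAA, in capitals.
Isg15: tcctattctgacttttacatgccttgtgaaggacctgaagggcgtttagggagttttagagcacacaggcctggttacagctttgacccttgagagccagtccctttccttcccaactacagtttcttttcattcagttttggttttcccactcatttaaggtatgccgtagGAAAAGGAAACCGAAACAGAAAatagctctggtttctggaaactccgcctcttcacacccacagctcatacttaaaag
The 100 bases nearest the start are given for the other genes, chr9:107975467-107975566 for Uba7, chr2:84798728-84798827 for Ube2l6 and chr6:57580892-57580991 for Herc6, to set beside it.
Uba7: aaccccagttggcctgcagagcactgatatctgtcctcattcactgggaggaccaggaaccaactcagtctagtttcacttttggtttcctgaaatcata
Ube2l6: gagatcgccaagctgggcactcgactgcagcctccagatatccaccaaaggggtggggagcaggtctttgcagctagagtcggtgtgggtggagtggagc
Herc6: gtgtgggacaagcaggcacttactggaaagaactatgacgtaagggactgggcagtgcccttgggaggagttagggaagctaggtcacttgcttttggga

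In Isg15 the core occurred 3 times in a row, each match sharing 4 bases with the next, between 78 and 57 bases before the start (GAAAAGGAAA, GAAACCGAAA and GAAACAGAAA). No exact match lay in the 250 bases before Uba7, Ube2l6 or Herc6. Near matches were not searched for, so these windows may still hold similar elements. Read on both strands, the core was in 2.98% of all 32851 promoter windows of this length in the table and in the windows of 6 of 15 other interferon-stimulated genes with an entry. The core of the gamma-activated site, TTCNNNGAA, was in none of the 4 windows and in 7.02% of all windows. A match is a description of letters and not of binding.

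Isg15, the modifier itself, stood at 228 and 289 TPM with Poly(I:C) and MSDC, 332 and 328 TPM with Poly(I:C) and vehicle, 1.93 and 4.21 TPM with MSDC, and 6.66 and 3.6 TPM with vehicle. The stimulated libraries were far above the unstimulated ones. Stimulated libraries with MSDC were below those with vehicle, and the unstimulated groups overlapped, since MSDC replicate 2 was above vehicle replicate 2. Ranked by mean TPM among all genes, Isg15 moved to place 438 with Poly(I:C) and vehicle, against place 8708 with vehicle.

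Uba7, the activating enzyme, stood at 50.5 and 63.2 TPM with Poly(I:C) and MSDC, 55.7 and 62.7 TPM with Poly(I:C) and vehicle, 11.4 and 12.01 TPM with MSDC, and 16.4 and 12.9 TPM with vehicle. Stimulated groups overlapped each other and lay above all unstimulated libraries. Ube2l6, the carrier enzyme, had the highest unstimulated level of the 5 genes. It stood at 219 and 248 TPM with Poly(I:C) and MSDC, 299 and 324 TPM with Poly(I:C) and vehicle, 23.1 and 21.95 TPM with MSDC, and 56.1 and 41.0 TPM with vehicle. No groups of Ube2l6 overlapped.

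Herc6, the mouse ligase, stood at 26.65 and 28.1 TPM with Poly(I:C) and MSDC, 29.0 and 32.3 TPM with Poly(I:C) and vehicle, 6.68 and 6.1 TPM with MSDC, and 7.71 and 6.48 TPM with vehicle. Its unstimulated groups overlapped, and the stimulated libraries with MSDC lay just below those with vehicle. Usp18, the protease, had the lowest unstimulated level of the 5 genes. It stood at 67.7 and 66.8 TPM with Poly(I:C) and MSDC, 104.8 and 105.3 TPM with Poly(I:C) and vehicle, 0 and 0.53 TPM with MSDC, and 1.1 and 0.59 TPM with vehicle. Usp18 had 0 and 14 read counts in the MSDC libraries and 28 and 16 in the vehicle libraries, and a count of 0 allows up to 3 counts, or 0.103 CPM (counts scaled to library size), which covers counting error only. No groups of Usp18 overlapped.

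**Figure D1:**
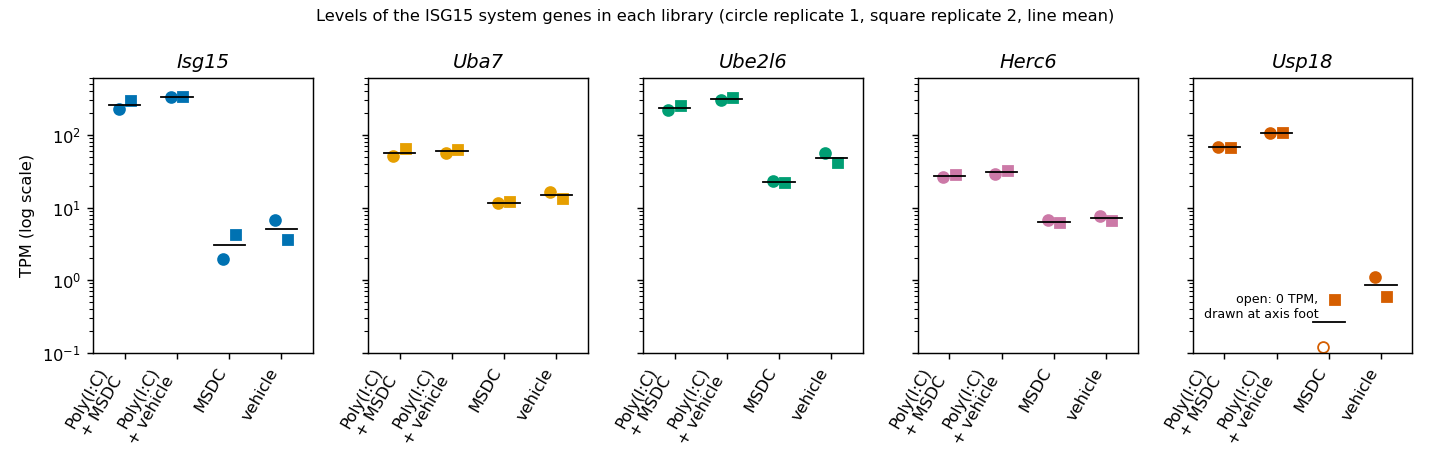
TPM on a log scale for each of the 5 genes, with replicate 1 as a circle, replicate 2 as a square and the group mean as a line; the Usp18 library at 0 TPM is an open circle at the foot of the axis. All 5 genes are higher in the 4 stimulated libraries than in the 4 unstimulated ones, and Isg15 and Usp18 start lowest.

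Across the 4 groups each gene kept the same order of mean level: Poly(I:C) with vehicle highest, then Poly(I:C) with MSDC, then vehicle, then MSDC. Within that order the neighbours that overlapped were the stimulated groups for Uba7 and the unstimulated groups for Isg15 and Herc6. In bulk RNA, fewer cells of a type and less RNA per cell cannot be told apart. The order between genes changed with stimulation. With vehicle the means per gene length were 48.5 ± 10.7 TPM for Ube2l6, 14.7 ± 2.48 TPM for Uba7, 7.1 ± 0.87 TPM for Herc6, 5.13 ± 2.16 TPM for Isg15 and 0.845 ± 0.361 TPM for Usp18 (SD, n = 2). With Poly(I:C) and vehicle they were 330.0 ± 2.88 TPM for Isg15, 312 ± 17.3 TPM for Ube2l6, 105 ± 0.354 TPM for Usp18, 59.2 ± 4.95 TPM for Uba7 and 30.6 ± 2.36 TPM for Herc6 (SD, n = 2).

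The first comparison was Poly(I:C) with vehicle against vehicle alone. All 5 genes rose (quasi-likelihood test of edgeR, adjusted by Benjamini-Hochberg over 11621 genes and called under 0.05), against 7.52% of all tested genes called higher and 4.1% called lower. In all 5 the stimulated libraries lay above both unstimulated ones, which held for 25.6% of all tested genes. None of the 5 was called lower by edgeR, DESeq2 or limma, or was lower at an unadjusted p under 0.05. The modifier and the protease formed the steep end. Usp18 rose by 7.02 on the log2 scale (SE 0.22, adjusted p = 2.69e-12), or 129.9-fold, and Isg15 rose by 6.09 (SE 0.19, adjusted p = 3.05e-12), or 68.1-fold. The enzymes of the conjugation chain rose less. Ube2l6 rose by 2.75 (SE 0.11), or 6.73-fold, Herc6 by 2.17 (SE 0.09), or 4.5-fold, and Uba7 by 2.07 (SE 0.11), or 4.21-fold, with adjusted p of at most 1.55e-09 in edgeR's test. Intervals of 95% were 6.55 to 7.49 for Usp18 and 5.68 to 6.5 for Isg15, with that of Ube2l6 (2.52 to 2.98) below both and above those of Herc6 (1.98 to 2.36) and Uba7 (1.84 to 2.31). A fitted rise at least as large was found in 25 of the 11621 genes for Usp18, itself included, and in 38 for Isg15. Leaving out vehicle replicate 1 or 2 gave 7.5 and 6.65 for Usp18 and 6.56 and 5.72 for Isg15.

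The second comparison was Poly(I:C) with MSDC against MSDC alone. All 5 genes rose here too, against 4.82% of tested genes called higher and 1.5% called lower. Their groups did not overlap, as in 25.9% of all tested genes on the higher side. None was called lower by edgeR, DESeq2 or limma, or was lower at an unadjusted p under 0.05. Usp18 rose by 7.95 (SE 0.27, adjusted p = 6.41e-12 in edgeR's test) and Isg15 by 6.40 (SE 0.21, adjusted p = 5.00e-12). Ube2l6 rose by 3.38 (SE 0.11), Uba7 by 2.28 (SE 0.11) and Herc6 by 2.1 (SE 0.09). These are 10.4-fold, 4.86-fold and 4.28-fold. Without MSDC replicate 1 or 2, Isg15 had values of 5.93 and 7.08. The Usp18 value rests on few MSDC counts: it was 6.97 without MSDC replicate 1, the library with no Usp18 count, and 13.77 without replicate 2, where the comparison is with 0 counts and the fitted value is no measure of size.

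**Figure D2:**
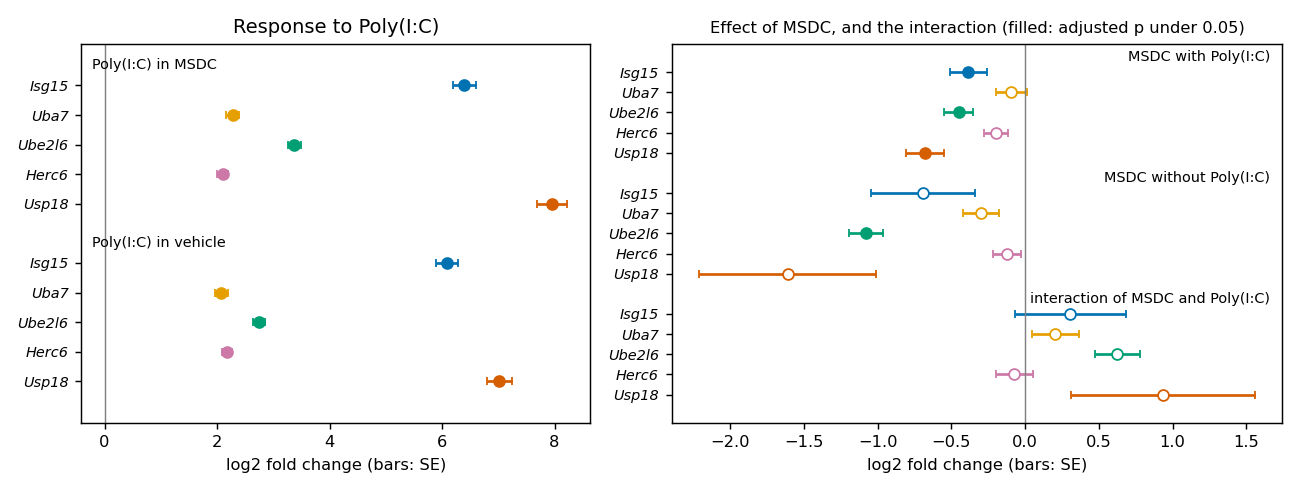
Log2 fold changes with SE for the 5 genes, left for Poly(I:C) in cells given MSDC and in cells given vehicle, right for MSDC with and without Poly(I:C) and for the interaction; filled points have an adjusted p under 0.05. All responses to Poly(I:C) are filled, and among the effects of MSDC those of Isg15, Ube2l6 and Usp18 with Poly(I:C) and of Ube2l6 without it are filled.

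Stimulation changed the make-up of the system's transcripts. The 5 genes together summed to 592 and 695 TPM with Poly(I:C) and MSDC, 821 and 852 TPM with Poly(I:C) and vehicle, 43.1 and 44.8 TPM with MSDC, and 88.0 and 64.6 TPM with vehicle. Isg15 made up 40.5 and 38.5% of that sum with Poly(I:C) and vehicle, against 7.57 and 5.57% with vehicle. Ube2l6 made up 36.5 and 38.0% of it with Poly(I:C) and vehicle, against 63.7 and 63.5% with vehicle. The protease gene took 12.8 and 12.4% with Poly(I:C) and vehicle, against 1.25 and 0.913% with vehicle. By TPM there were 2.86 and 3.08 Ube2l6 transcripts per Usp18 transcript with Poly(I:C) and vehicle, against 51.0 and 69.5 with vehicle.

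**Figure D3:**
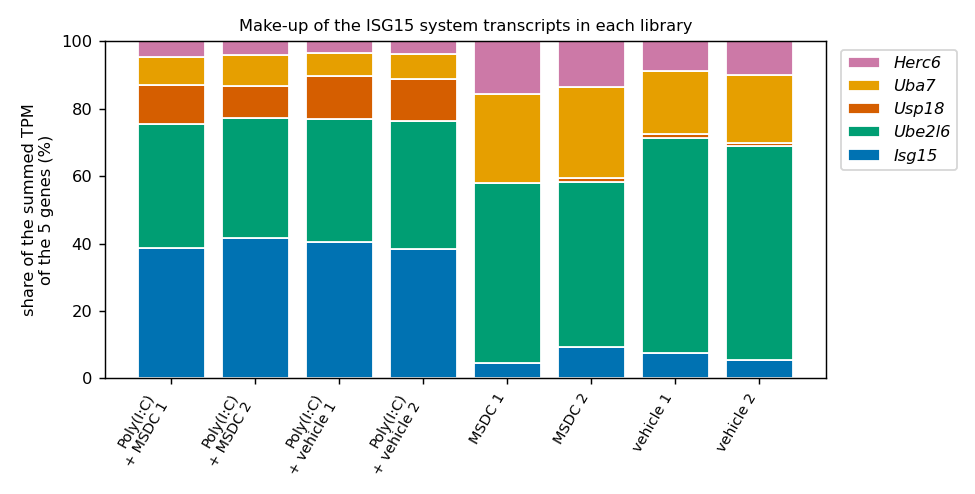
Stacked bars give the share of each gene in the summed TPM of the 5 genes, in percent, for each of the 8 libraries. Isg15 and Usp18 take larger shares in the 4 stimulated libraries, and Ube2l6, Uba7 and Herc6 take larger shares in the unstimulated ones.

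The third comparison was MSDC against vehicle in stimulated cells. Isg15, Ube2l6 and Usp18 fell, which is 3 of 5 genes, against 13.6% of all tested genes called lower and 12.5% called higher in this comparison. The libraries with MSDC lay below those with vehicle for 4 of the 5, against 31.8% of tested genes, and above them for 0 of the 5, against 30.2%. No gene of the 5 was called higher by edgeR, DESeq2 or limma, or was higher at an unadjusted p under 0.05. Usp18 fell by 0.68 on the log2 scale (SE 0.13, adjusted p = 0.000875 in edgeR's test), to 0.626 of its level with vehicle. Ube2l6 fell by 0.45 (SE 0.10, adjusted p = 0.00242 in edgeR's test), to 0.732 of that level, and Isg15 fell by 0.38 (SE 0.13, adjusted p = 0.0346 in edgeR's test), to 0.766. Herc6 had a change of -0.20 (SE 0.08, adjusted p = 0.0914, 95% interval -0.37 to -0.02) and Uba7 one of -0.09 (SE 0.10, adjusted p = 0.572, 95% interval -0.31 to 0.13). In fits that left out 1 library at a time, where the lone library of a group is assumed to vary like the others, Usp18 lay between -0.69 and -0.66 and Isg15 ranged from -0.57 to -0.22. The call of Isg15 was lost without replicate 1 or 2 of Poly(I:C) with vehicle (adjusted p = 0.12 and 0.104), without replicate 1 of Poly(I:C) with MSDC (0.37), with DESeq2 (0.614) and with limma (0.374 and 0.472 at pseudocounts of 1 and 0.1). That of Usp18 was lost with DESeq2 (adjusted p = 0.752) and with limma at a pseudocount of 0.1 (0.512), and that of Ube2l6 without replicate 1 of Poly(I:C) with MSDC (-0.37, adjusted p = 0.0565). Markers of other cells differed with MSDC as well. The 6 interstitial macrophage and monocyte markers summed to 5.8 and 7.33 TPM with Poly(I:C) and MSDC and to 8.37 and 10.95 TPM with Poly(I:C) and vehicle. Among them Ccr2, C1qa and Ly6c2 were lower with MSDC, while C1qb and C1qc overlapped. The 4 dendritic cell markers in the table summed to 0.56 and 0.57 TPM with Poly(I:C) and MSDC and to 1.17 and 1.19 TPM with Poly(I:C) and vehicle. Most of that sum was Zbtb46. The 3 endothelium markers in the table summed to 0.46 and 0.58 TPM with Poly(I:C) and MSDC and to 1.49 and 1.69 TPM with Poly(I:C) and vehicle. Most of that sum was Cdh5. Pecam1 went the other way, at 0.2 and 0.15 TPM with Poly(I:C) and MSDC, against 0.08 and 0.07 TPM with Poly(I:C) and vehicle. Of the 2 neutrophil markers in the table, S100a8 was higher, at 41.85 and 31.85 TPM with Poly(I:C) and MSDC, against 27.17 and 27.68 TPM with Poly(I:C) and vehicle. Csf3r was not, at 1.98 and 1.17 TPM with Poly(I:C) and MSDC, against 2.65 and 1.89 TPM with Poly(I:C) and vehicle. Their part in these results was not tested.

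Ratios to the protease gene within stimulated cells are given as a description. There were 3.37 and 4.33 Isg15 transcripts per Usp18 transcript with Poly(I:C) and MSDC, against 3.17 and 3.12 with Poly(I:C) and vehicle, by TPM. The ratio of Ube2l6 to Usp18 was 3.23 and 3.71 with MSDC, against 2.86 and 3.08 with vehicle. For Uba7 it was 0.747 and 0.945 with MSDC, against 0.532 and 0.596 with vehicle, and for Herc6 it was 0.394 and 0.42 with MSDC, against 0.276 and 0.307 with vehicle. The 4 ratios share 1 denominator, the Usp18 level, whose own fall was not called by DESeq2 (adjusted p = 0.752), and they were not tested.

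The fourth comparison was MSDC against vehicle without stimulation. Ube2l6 fell by 1.08 on the log2 scale (SE 0.12, adjusted p = 3.57e-06 in edgeR's test), to 0.474 of its vehicle level, and was the 1 gene of 5 called lower, against 12.4% of all tested genes called lower and 11.1% called higher. At an unadjusted p under 0.05, 3 of the 5 were lower. Both MSDC libraries lay below both vehicle libraries for 3 of the 5 (Uba7, Ube2l6 and Usp18), against 28.7% of tested genes, and above them for 0, against 28.3%. Without single libraries the change of Ube2l6 lay between -1.27 and -0.86 and kept its call. The others were not called: Usp18 had a change of -1.61 (SE 0.60, adjusted p = 0.0677), Isg15 of -0.69 (SE 0.35, adjusted p = 0.196), Uba7 of -0.30 (SE 0.12, adjusted p = 0.0938) and Herc6 of -0.12 (SE 0.10, adjusted p = 0.419, 95% interval -0.33 to 0.08). None of the 5 was called higher by edgeR, DESeq2 or limma, or was higher at an unadjusted p under 0.05. Vehicle replicate 2 decided several of these: without it Isg15 (-1.06, adjusted p = 0.0286), Uba7 (-0.44, adjusted p = 0.00788) and Usp18 (-1.98, adjusted p = 0.0149) were called lower as well, whereas without vehicle replicate 1 Isg15 was at -0.22 and Uba7 at -0.14. Isg15 (-1.39, adjusted p = 0.04) and Usp18 (adjusted p = 0.000337) were also called lower without MSDC replicate 2. Here the interstitial macrophage and monocyte markers summed to 6.2 and 8.28 TPM with MSDC and to 10.96 and 12.85 TPM with vehicle. Dendritic cell markers summed to 0.74 and 0.75 TPM with MSDC and to 1.35 and 1.37 TPM with vehicle, most of it Zbtb46. Endothelium markers summed to at most 0.49 TPM with MSDC and reached 1.44 TPM with vehicle, most of it Cdh5, while Pecam1 overlapped. Lung epithelium markers summed to 26.95 and 29.9 TPM with MSDC and to 33.9 and 36.7 TPM with vehicle. The neutrophil marker S100a8 was higher with MSDC, at 38.58 and 46.05 TPM, against 24.85 and 31.82 TPM with vehicle. Csf3r overlapped, at 0.99 and 1.77 TPM with MSDC, against 2.2 and 1.63 TPM with vehicle. The part of these markers was not tested.

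**Figure D4:**
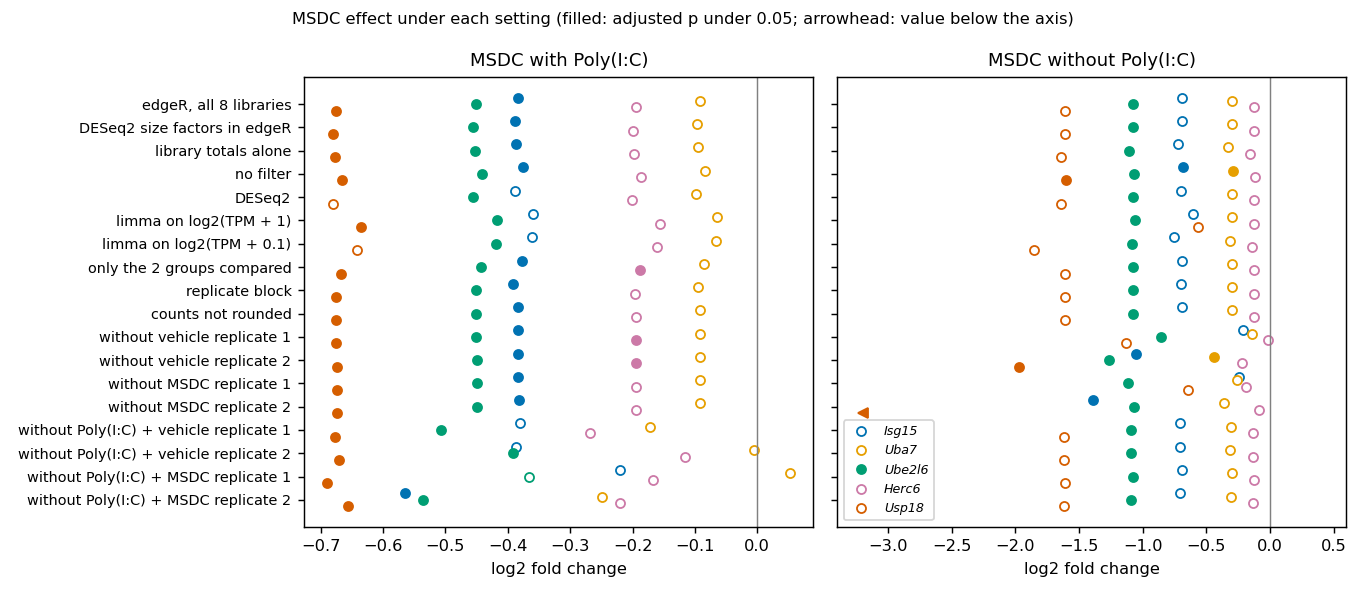
Log2 fold changes of the 5 genes for MSDC with Poly(I:C) (left) and without it (right), 1 line for each way of fitting or library left out; filled points have an adjusted p under 0.05 and the arrowhead marks a Usp18 value of -7.44, below the axis. Without Poly(I:C), Ube2l6 is filled on every line, and with Poly(I:C) it is filled on every line but that without replicate 1 of Poly(I:C) with MSDC.

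The interaction asked whether the response to Poly(I:C) differed between MSDC and vehicle, and is positive where it was larger with MSDC. No gene of the 5 was called by edgeR's quasi-likelihood test, against 0.12% of tested genes called higher and 0.103% called lower. At an unadjusted p under 0.05 there was 1, Ube2l6, with a value of 0.63 (SE 0.15, adjusted p = 0.197, 95% interval 0.30 to 0.95). DESeq2 called Ube2l6 (0.62, adjusted p = 0.0205), limma called 0 of the 5, and edgeR called it without vehicle replicate 2 (0.82, adjusted p = 0.000169) and with no filter on low counts (0.63, adjusted p = 2.22e-05). Usp18 had a value of 0.93 with an interval of -0.40 to 2.26, Isg15 0.31 with -0.50 to 1.11, Uba7 0.21 with -0.13 to 0.54, and Herc6 -0.07 with -0.34 to 0.19. A difference between the effects of MSDC with and without stimulation was therefore not shown for these 4 genes. For Ube2l6 it was not shown by edgeR's test of all 8 libraries either, and its call depended on the tool and setting. The wide interval of Usp18 goes with its 0 to 28 unstimulated counts. The comparisons of Poly(I:C) in vehicle and of MSDC without Poly(I:C) share the vehicle libraries, and those of Poly(I:C) in MSDC and of MSDC with Poly(I:C) share the libraries given both.

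Close relatives of the 5 genes give the setting for these values. Ube2l3, the E2 enzyme most like Ube2l6, had a mean of 299 ± 2.31 TPM with Poly(I:C) and vehicle and 303 ± 12.1 TPM with vehicle (SD, n = 2), a log2 change of 0.04 (SE 0.06, adjusted p = 0.703). Uba1, the main ubiquitin-activating enzyme, had a change of 0.08 (SE 0.06, adjusted p = 0.484), with 198 ± 0.997 TPM after Poly(I:C) and 195 ± 10.1 TPM with vehicle. Herc3 and Herc4 had changes of 0.28 (SE 0.12, adjusted p = 0.147) and -0.17 (SE 0.09, adjusted p = 0.303). The ubiquitin gene Ubb rose by 0.34 (SE 0.06, adjusted p = 0.00102 in edgeR's test), to 2195 ± 114 TPM with Poly(I:C) and vehicle, against 1807 ± 93.2 TPM with vehicle. Per gene length, Ube2l6 averaged 312 TPM beside the 299 TPM of Ube2l3 after Poly(I:C) and vehicle, and 48.5 TPM beside 303 TPM with vehicle.

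Wider families were read for Poly(I:C) in vehicle, where 7.52% of all tested genes were called higher and 4.1% lower. Of 30 tested E2 genes other than Ube2l6, 0 were called in either direction by edgeR, DESeq2 or limma, with a median log2 change of 0.09; 5 were higher and 0 lower at an unadjusted p under 0.05 in edgeR. Of 9 E1 genes and partners 1 fell, Atg7 (-0.19, SE 0.06). Of 4 HERC genes 0 were called by edgeR, DESeq2 or limma, and 1 was higher at an unadjusted p under 0.05. Among 41 tested USP genes 2 rose, Usp25 (0.52, SE 0.06) and Usp11 (0.66, SE 0.16), with a family median of -0.04. Of 12 tested genes of ubiquitin and other modifiers 7 rose, with a median of 0.26 and a largest change of 0.46, while 6 were called higher by DESeq2, 5 when library totals alone set the scale and 4 by limma at either pseudocount. Ubd, which encodes another interferon-inducible modifier known as FAT10, is listed at 0 in all 8 libraries. Of 5 tested proteases reported to act on ISG15 in human or in vitro studies (Usp2, Usp5, Usp14, Usp16 and Usp21), 0 were called by edgeR, DESeq2 or limma in any of the 5 comparisons, and 0 were higher or lower at an unadjusted p under 0.05 with Poly(I:C) in either setting. The median over all tested genes was 0 for Poly(I:C) in vehicle.

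**Figure D5:**
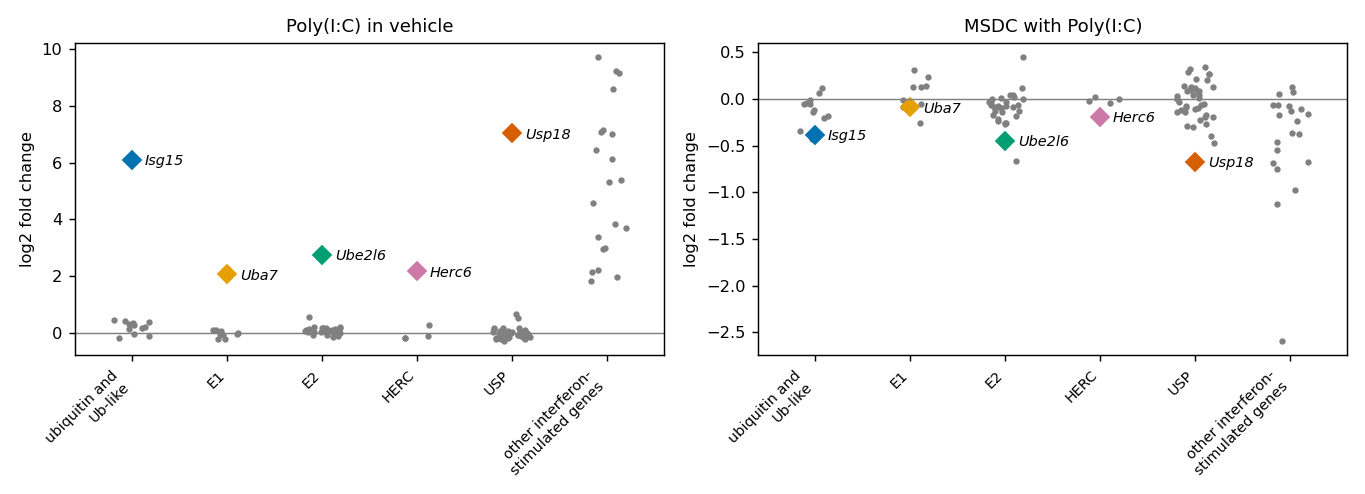
Log2 fold changes for Poly(I:C) in vehicle (left) and for MSDC with Poly(I:C) (right), grey points for relatives in each family and for other interferon-stimulated genes, diamonds for the 5 ISG15 system genes. On the left each diamond stands above every relative in its family, whose highest value is 0.66, and within the range of the other interferon-stimulated genes.

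Other interferon-stimulated genes gave the scale of the response. All 21 tested genes of that list (23 were named, and 21 are in the table) rose with Poly(I:C) in vehicle, with changes from 1.82 to 9.71 and a median of 5.30, so that Usp18 and Isg15 lay above the median and Ube2l6, Herc6 and Uba7 in its lower part. Over all tested genes, 7.52% were called higher with Poly(I:C) in vehicle. With Poly(I:C) in MSDC 20 of 21 rose (median 6.16), against 4.82% of all tested genes called higher. With MSDC and Poly(I:C) 9 of 21 fell in edgeR, 5 in DESeq2 and 7 and 4 in limma at pseudocounts of 1 and 0.1 (median -0.24 in edgeR), for example Ifit2 (-0.98, SE 0.09) and Oasl1 (-0.68, SE 0.09). In that comparison 0 were called higher by these tools or were higher at an unadjusted p under 0.05 in edgeR. Over all tested genes, 13.6% were called lower and 12.5% higher there. With MSDC alone 14 of 21 fell (median -0.75) and 0 were called higher by edgeR, DESeq2 or limma, with 1 higher at an unadjusted p under 0.05. Over all tested genes, 12.4% were called lower and 11.1% higher with MSDC alone. In the interaction Oas1a (1.23, SE 0.17), Xaf1 (2.33, SE 0.34) and Dhx58 (0.98, SE 0.18) were called higher by edgeR, against 0.12% of all tested genes. DESeq2 called 2 of the list higher and 2 lower in the interaction, and limma called 1 in each direction at a pseudocount of 1 and 0 at 0.1 (8 higher and 3 lower at an unadjusted p under 0.05).

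Of the 7 genes of the interferon receptor and ISGF3, 4 rose with Poly(I:C) in vehicle, against 7.52% of all tested genes called higher. The count was 3 with DESeq2, with DESeq2 size factors in edgeR, and when library totals alone set the scale. Stat2 rose by 2.3 (SE 0.09) and Irf9 by 1.79 (SE 0.12), while the receptor gene Ifnar2 rose by 0.23 (SE 0.07, adjusted p = 0.0454 in edgeR's test). In MSDC 3 of 7 rose, led by Irf9 (2.89, SE 0.13), against 4.82% of all tested genes called higher. MSDC alone lowered 4 of 7, against 12.4% of all tested genes called lower. Among them were Irf9 (-1.21, SE 0.14), Stat2 (-0.51, SE 0.09) and the receptor gene Ifnar1 (-0.39, SE 0.07). MSDC with Poly(I:C) lowered 2 of 7, Ifnar1 (-0.41, SE 0.07) and Stat2 (-0.29, SE 0.08), against 13.6% of all tested genes called lower. Limma called 1 of the list lower there. Irf9 was the 1 gene of this list called in the interaction (1.1, SE 0.18, adjusted p = 0.0134 in edgeR's test), against 0.12% of all tested genes called higher. Limma called 0 of the list there at either pseudocount (1 higher at an unadjusted p under 0.05). Irf9 stood at 80.7 and 76.8 TPM with Poly(I:C) and MSDC, 80.8 and 85.5 TPM with Poly(I:C) and vehicle, 9.65 and 11.5 TPM with MSDC, and 29.2 and 20.2 TPM with vehicle.

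Among 13 genes whose proteins are reported as ISG15 targets, mostly in human cells, 5 rose with Poly(I:C) in vehicle, including the RNA sensor genes Ddx58 (2.94, SE 0.13) and Ifih1 (2.15, SE 0.09). Over all tested genes, 7.52% were called higher there. Limma at either pseudocount, and edgeR with library totals alone, called 4 of the list higher. In MSDC 4 rose and 1 fell, with a list median of 0.03, against 4.82% of all tested genes called higher and 1.5% called lower. Limma called 0 lower in MSDC at either pseudocount (1 lower at an unadjusted p under 0.05). MSDC with Poly(I:C) raised 1, Plcg1 (1.09, SE 0.08), and lowered 1, Ube2e1 (-0.26, SE 0.08), against 12.5% of all tested genes called higher and 13.6% called lower. MSDC alone raised Plcg1 (1.14, SE 0.07) and lowered 3, against 11.1% of all tested genes called higher and 12.4% called lower. Itgal, 1 of the 2 subunits of the integrin LFA-1 that binds ISG15 outside cells, fell with MSDC both with (-0.47, SE 0.06) and without Poly(I:C) (-0.39, SE 0.06). Of the 2 LFA-1 genes 0 were called by edgeR, DESeq2 or limma in either response to Poly(I:C), and 0 had an unadjusted p under 0.05.

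In the wider families, MSDC with Poly(I:C) lowered 2 and raised 1 of 30 E2 genes, and raised 2 of 9 E1 genes. Of 41 USP genes 5 rose and 2 fell, against 12.5% of all tested genes called higher and 13.6% called lower. DESeq2 called 1 of the E1 genes higher, and limma called 1 E2 and 1 USP gene lower. Of 12 ubiquitin and modifier genes 2 fell, among them Ubb (-0.43, SE 0.06). Without Poly(I:C), MSDC raised 2 of 30 E2 genes, 1 of 9 E1 genes and 2 of 12 modifier genes and lowered 1 modifier gene. In each direction 3 of 41 USP genes were called, against 11.1% of all tested genes called higher and 12.4% called lower. The count of modifier genes called higher was 1 with DESeq2, and 0 with limma at either pseudocount (2 at an unadjusted p under 0.05) and in edgeR with library totals alone. The count of E2 genes called higher was 0 and 1 with limma at pseudocounts of 1 and 0.1 (2 at an unadjusted p under 0.05), and 1 with library totals alone. Atg7, which activates the ubiquitin-like proteins of autophagy, rose in both settings (0.31, SE 0.06, with Poly(I:C) and 0.27, SE 0.06, without). With Poly(I:C) in MSDC, 2 of 12 modifier genes and 1 of 41 USP genes rose, against 4.82% of all tested genes called higher. Limma called 0 modifier genes there at either pseudocount (3 higher at an unadjusted p under 0.05), and 1 was called when library totals alone set the scale. In that comparison edgeR, DESeq2 and limma called 0 of the E1, E2 and HERC genes, and at an unadjusted p under 0.05 in edgeR 1 E1 gene was lower. HERC genes were also without a call by these tools in both MSDC comparisons, with 1 of 4 higher at an unadjusted p under 0.05 without Poly(I:C) and 0 with it. In the interaction edgeR and limma called 0 genes of the modifier, E1, E2, HERC and USP families, and DESeq2 called 1 modifier gene lower.

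Genes with the most similar pattern were ranked by Pearson's r of log2 CPM over the 8 libraries, among 10341 genes. The points share the 4 groups, so r mostly follows the group means and is a description. Isg15 was most like Trex1 (0.998), Rsad2, Parp9, Trim34a and Dtx3l (0.997 each). Uba7 and Herc6 shared Tdrd7 and Znfx1 among their closest 5, with r of 0.998 and 0.998 for Uba7 and 0.999 and 0.999 for Herc6. Ube2l6 was closest to Sp100 (0.999), Trim30a, H2-T24, Gbp2 and Oas1a, and Usp18 to Oas1g (0.999), Oasl2, Oas3, Irf7 and Ifit1. Sp100, which encodes a protein of nuclear bodies, stood at 107 and 110.4 TPM with Poly(I:C) and MSDC, 143 and 146 TPM with Poly(I:C) and vehicle, 9.13 and 10.3 TPM with MSDC, and 25.5 and 19.2 TPM with vehicle. Between the 5 genes r ran from 0.966 (Herc6 with Usp18) to 0.996 (Isg15 with Uba7).

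The nearest tested protein-coding gene on each side of the 5 genes was read beside them, a choice made after values had been seen. Agrn, which encodes agrin and lies 1.9 kb from Isg15, rose with Poly(I:C) in vehicle by 2.04 (SE 0.12, adjusted p = 2.61e-09 in edgeR's test) and in MSDC by 1.74 (SE 0.12). It fell with MSDC, by 0.75 (SE 0.11) with Poly(I:C) and by 0.45 (SE 0.13, adjusted p = 0.0156) without. Perm1, 15.0 kb from Isg15 on its other side, rose with Poly(I:C) in vehicle by 2.31 (SE 0.53, adjusted p = 0.00854). Among the neighbours of the other 4 genes, Pyurf beside Herc6 fell with Poly(I:C) in vehicle (-0.63, SE 0.16, adjusted p = 0.0191), and Inka1, 0.2 kb from Uba7, had a change of -0.01 (SE 0.29, adjusted p = 0.988).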

How the data were processed

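RNA of 8 samples was measured by bulk RNA-seq, 2 samples in each of 4 groups taken from the treatment labels. The table deposited by the authors gives, per the file headers, a read count, an FPKM and a TPM for each gene and sample. The expected counts deposited by the authors are not scaled to depth, and 5.95 to 7.19% of them per library were not whole numbers; all 40 values of the 5 genes were whole. The TPM deposited by the authors are per gene length and sum to the same total in every sample, and the FPKM deposited by the authors were not used. Tools named in the submitters' processing notes are Cuffdiff, Bowtie2 2.3.4 and TopHat2 2.1.1, with the build GRCm38 (mm10), and no source used here says which of them made which column.

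Counts were rounded, filtered with filterByExpr (11621 of 15521 genes kept), scaled by TMM (factors 0.985 to 1.03) and fitted with the 4 groups as terms by edgeR 4.0.16 (R 4.3.3, glmQLFit, 4 residual degrees of freedom), which shares 1 estimate of spread. Two-sided p-values were adjusted by Benjamini-Hochberg over all tested genes, and values under 0.05 were called. SE was derived from the change and its F statistic, and 95% intervals from SE and the moderated degrees of freedom. Alternatives were other scalings, no filter, DESeq2 1.42.0, limma 3.58.1 on log2(TPM + 1) and log2(TPM + 0.1), the groups compared alone, unrounded counts, a replicate block, and each library left out. The 5 genes and all lists were chosen with earlier results of these data known. Named genes are the 5 genes, up to 3 called genes with the smallest p per list and comparison, the 5 genes most alike to each (predicted models left out) and fixed relatives. Others named (Ifnar2, Usp2, Usp5, Usp14, Usp16, Usp21, Ubd, the cell markers and the neighbours) are list members or were chosen after their values were seen. Protein sequences were not analysed here. Gene symbols turned into dates (23) were repaired from gene identifiers. Some genes that the rule names are not reported here.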

Additional observations from a re-analysis of the deposited data

How the results depend on the processing

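Over 17 alternative settings, 390 of 420 fold changes of the 5 genes kept their direction and call, including all 170 of the responses to Poly(I:C). Adding the replicate number as a block changed no call: the replicate block left 5 and 5 genes higher with Poly(I:C) in vehicle and in MSDC, 1 lower with MSDC alone, 3 lower with MSDC and Poly(I:C), and 0 in the interaction. Over all tested genes, replicate differences correlated between groups at -0.03 to 0.05, so no shift shared by most genes was seen. Of 21 other interferon-stimulated genes, 18 were higher in replicate 2 with Poly(I:C) and MSDC, 19 with Poly(I:C) and vehicle and 19 with MSDC. With vehicle 20 of them were higher in replicate 1. Whether equal replicate numbers share an origin is not labelled, and neither the correlation nor these counts can decide it. For MSDC with Poly(I:C), the 3 genes called lower became 1 with DESeq2 (Isg15 -0.39 and Usp18 -0.68 not called), 2 with limma at a pseudocount of 1 (Isg15 -0.36 not called) and 1 at 0.1 (Isg15 -0.36 and Usp18 -0.64 not called). Herc6 was called (-0.19) when the 2 groups were fitted alone. Leaving out 1 library gave 1 to 4 genes lower, with ranges of -0.57 to -0.22 for Isg15, -0.25 to 0.0528 for Uba7, -0.54 to -0.37 for Ube2l6 and -0.27 to -0.12 for Herc6. For MSDC alone, the 1 gene called lower became 4 with no filter (Isg15 -0.68, Uba7 -0.29 and Usp18 -1.60 also called), and 1 to 4 leaving out 1 library. Those ranges were -1.39 to -0.22 for Isg15, -0.44 to -0.14 for Uba7 and -7.44 to -0.64 for Usp18, whose lowest value is fitted against 0 counts. In the interaction, 0 called genes became 1 with no filter (Ube2l6 0.63) and with DESeq2 (Ube2l6 0.62), and 0 to 1 leaving out 1 library. Leaving out 1 library gave -0.17 to 1.008 for Isg15, 0.41 to 0.82 for Ube2l6, -0.18 to 0.0292 for Herc6 and -0.0302 to 6.77 for Usp18, and the Usp18 value was -0.0722 with limma at a pseudocount of 1. The single reversals without a library, each in a value that was not called, were 0.0528 for Uba7 with MSDC and Poly(I:C) (without replicate 1 of that group), and in the interaction -0.17 and -0.14 for Isg15 (without vehicle and MSDC replicate 1), 0.0292 and 0.0199 for Herc6 (without vehicle replicate 2 and replicate 2 of Poly(I:C) with vehicle) and -0.0302 for Usp18 (without MSDC replicate 1). The causes were not tested. Over all genes, 64.7% of calls for Poly(I:C) in vehicle were higher with TMM scaling, against 45.7% with library totals alone (729 higher and 867 lower calls, median shift -0.0546), and the interaction's 14 higher and 12 lower calls became 64 and 52 with no filter. The few counts of Usp18 and Isg15 in unstimulated libraries (0 to 68) limit the precision of comparisons that use them.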
